A study of Drosophila melanogaster with 2 samples.

Results

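The regions described are the 279 intergenic peaks of a chromatin immunoprecipitation sequencing (ChIP-seq) experiment on Dorsal (dl), 10.4% (95% interval 9.24 to 11.6%) of its 2690 thresholded peaks on chromosome arms. They were chosen by position alone: the summit lay in no annotated gene and more than 500 bp from every annotated transcription start site, with pseudogenes and transposable elements left out of the annotation. The other arm peaks were 1491 at promoters (summit within 500 bp of a start site), 803 in introns and 117 in exons. The thresholded list held 2718 regions in all, 28 of them mitochondrial. The larvae were at the third instar, wandering, and of a transgenic line (dl-small-GFP) that stably expresses dl-RC with GFP at its C-terminus, with both sexes pooled and the age given as unknown. An antibody against GFP was used for the precipitation, although 1 label field names dl as the antibody. The 2 biological replicates, 3 and 1 in the labels, form the single group, with no second genotype or condition. Every tissue of the larva was pooled, so the cells behind a peak cannot be told apart, and region lists hold no expression values with which to check the tissue.

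Dorsal is an NF-kB family transcription factor that enters the nucleus when the Toll receptor is activated. In the early embryo its nuclear gradient sets dorsoventral fates, and later, with its relative Dif, it takes part in the immune response of larvae and adults. Sequence between genes holds many of the distal enhancers of developmental genes in Drosophila. GA repeats in such sequence are bound by GAGA factor (Trl) and by other proteins that recognise the same letters.

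The sequences that carry the main contrast among these regions are the windows of 100 bp on each side of the summits. All are from the plus strand of dm6 and from the release 6 reference assembly as RefSeq gives it. In the first 3, peaks of high signal with the motif GAGAGAG, capitals mark GAGAGAG or its reverse complement CTCTCTC.
by to mura (chr3R:9533523-9533723): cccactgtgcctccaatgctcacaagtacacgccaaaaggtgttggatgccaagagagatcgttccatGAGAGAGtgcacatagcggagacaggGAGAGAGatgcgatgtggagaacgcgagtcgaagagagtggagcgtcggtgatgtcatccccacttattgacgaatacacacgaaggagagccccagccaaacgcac
MsrA to CG13454 (chr3L:15514451-15514651): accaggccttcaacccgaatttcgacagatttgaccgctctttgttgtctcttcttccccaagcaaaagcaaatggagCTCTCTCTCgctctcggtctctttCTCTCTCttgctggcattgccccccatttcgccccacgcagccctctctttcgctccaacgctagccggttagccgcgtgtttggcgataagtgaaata
klu to Fad2 (chr3L:11010367-11010567): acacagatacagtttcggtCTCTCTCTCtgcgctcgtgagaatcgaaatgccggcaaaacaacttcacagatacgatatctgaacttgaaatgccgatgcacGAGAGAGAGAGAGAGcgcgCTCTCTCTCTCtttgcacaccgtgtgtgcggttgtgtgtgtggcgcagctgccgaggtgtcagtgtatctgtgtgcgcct
The next pair have the highest signal among peaks with no GAGAGAG in the window, and hold no capitals.
COX7AL2 to CG31668 (chr2L:2200380-2200580): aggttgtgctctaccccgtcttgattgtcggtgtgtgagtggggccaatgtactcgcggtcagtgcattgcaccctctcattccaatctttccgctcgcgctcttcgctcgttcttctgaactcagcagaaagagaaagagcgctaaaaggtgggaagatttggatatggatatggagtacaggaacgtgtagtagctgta
dsx to CD98hc (chr3R:7967842-7968042): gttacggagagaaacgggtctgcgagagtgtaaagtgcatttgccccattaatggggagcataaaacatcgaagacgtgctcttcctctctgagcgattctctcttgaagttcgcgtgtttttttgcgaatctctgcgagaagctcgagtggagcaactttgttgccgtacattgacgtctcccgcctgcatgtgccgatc
The following pair come from the gap beside Rh5, which held more peaks than any other and no GAGAGAG at any summit.
Hacd1 to Rh5 (chr2L:12003072-12003272): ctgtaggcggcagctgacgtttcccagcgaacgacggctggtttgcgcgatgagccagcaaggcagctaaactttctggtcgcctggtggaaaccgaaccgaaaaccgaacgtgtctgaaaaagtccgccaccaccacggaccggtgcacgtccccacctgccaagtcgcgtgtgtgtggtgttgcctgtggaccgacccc
Hacd1 to Rh5 (chr2L:12007409-12007609): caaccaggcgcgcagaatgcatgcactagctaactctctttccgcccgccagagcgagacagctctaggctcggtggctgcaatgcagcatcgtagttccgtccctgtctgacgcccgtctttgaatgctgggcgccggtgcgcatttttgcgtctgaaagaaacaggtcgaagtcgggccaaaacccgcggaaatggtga
The last pair hold the matches to the dl motif among all 279 windows, in capitals.
CG5011 to CG14342 (chr2L:1201228-1201428): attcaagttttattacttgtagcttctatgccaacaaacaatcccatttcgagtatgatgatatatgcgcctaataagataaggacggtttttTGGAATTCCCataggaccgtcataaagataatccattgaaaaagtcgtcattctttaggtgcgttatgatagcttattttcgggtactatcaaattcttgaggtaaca
CG10337 to Tep4 (chr2L:19547386-19547586): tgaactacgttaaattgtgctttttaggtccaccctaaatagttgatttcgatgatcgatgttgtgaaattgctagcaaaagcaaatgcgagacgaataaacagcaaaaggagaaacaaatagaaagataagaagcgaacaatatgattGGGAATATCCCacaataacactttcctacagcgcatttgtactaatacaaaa

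The signal of a region is the enrichment of ChIP over control that the authors' caller gave it, with no unit and no normalisation between lists. Intergenic peaks had signals of 73.5 to 733 with a median of 103 (quartiles 83.7 and 156). The median was 114 for intronic peaks (quartiles 86.6 and 172) and 127 for promoter peaks (quartiles 92.4 and 198), whose highest value was 2824. Signals at or above the median of all arm peaks, 119, were found in 112 of 279 intergenic peaks, 40.1% (95% interval 34.3 to 46.2%), against 809 of 1491 promoter peaks, 54.3% (51.7 to 56.8%). Fisher's exact test gave an odds ratio of 0.565 (95% interval 0.436 to 0.733), a difference that passed (two-sided, Benjamini-Hochberg adjusted p = 5.48e-05). Against intronic peaks, of which 46.8% reached that signal, the exact test gave 0.762 (0.578 to 1.00; adjusted p = 0.0593). That difference did not pass the threshold of 0.05, but did with start sites excluded within 1000 bp (0.697, adjusted p = 0.0465, exact test). Lists A and B were called on the single ChIP alignments, and the best regions of each alone served as a check. With list A the odds ratio against promoter peaks was 0.784 and did not pass (exact test, adjusted p = 0.0958), and against intronic peaks it was 1.04. With list B these were 0.524 and 0.657, and both passed (exact test, adjusted p = 0.00373 for the comparison with intronic peaks). Intergenic peaks made up 6 of the 100 arm peaks of highest signal and 34 of the 500 highest. In the authors' list 213 of the 279 (76.3%) were exactly 244 bp wide, while 19 of the 20 of highest signal were narrower.

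**Figure D1:**
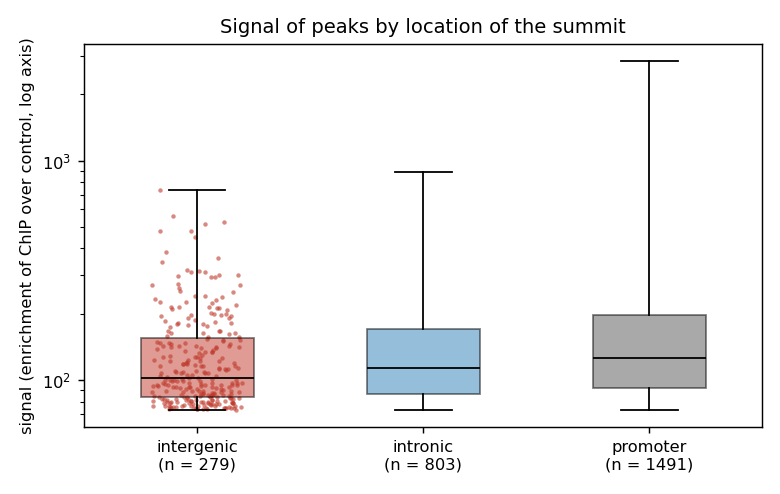
Signal of each arm peak (authors' enrichment of ChIP over control, log axis) by class, with boxes from the lower to the upper quartile, a line at the median, whiskers to the extremes and each intergenic peak as a point. The intergenic median of 103 lies under those of intronic peaks, 114, and promoter peaks, 127, and the classes overlap over most of their range.

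The intergenic peak of highest signal lay at chr2R:13015666-13015843, between Su(z)2, a Polycomb group gene, and CG13323. Its signal was 733 in the pooled list, 453 in list A and 302 in list B. These were the highest values of any intergenic peak in each list, although the nearest start site, that of Su(z)2, was 18649 bp away. The next was at chr3R:9533515-9533712, 612 bp from the start of by (blistery), which encodes the adhesion protein tensin, with a pooled signal of 561, 338 in list A and 289.7 in list B. A peak of signal 524 (chr2R:14307225-14307463) lay 787 bp from Shrm, which encodes the actin-binding protein Shroom, on the side of tej, a Tudor domain gene of the piRNA pathway. Beside MsrA, a methionine sulfoxide reductase gene, a peak of 516 (chr3L:15514454-15514634) lay 2505 bp from the nearest start, and the gap COX7AL2 to CG31668 held one of 479.

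Between klu, a zinc finger gene, and the desaturase gene Fad2, the signal was 478 (chr3L:11010331-11010564), at 1279 bp from the start of klu. A peak 1219 bp from chinmo, a BTB zinc finger gene of neuronal temporal identity, had 383 (chr2L:1649966-1650108), and one 534 bp from dsx, the sex determination gene, on the side of CD98hc, had 359.8 (chr3R:7967885-7968010). The homeobox gene dve had 2 peaks of 312 each in its gap with lncRNA:CR44755, at 1732 and 762 bp. Between Obp99c, an odorant binding protein gene, and dmrt99B, a relative of dsx, the signal was 298, and beside the limb gene Dll, in its gap with CG42851, it was 294 (chr2R:24813768-24813893). The others lay between lncRNA:CR45609 and CG6023 (449.6), CG31145 and GILT3 (346), nrv1 and nrv2, genes for sodium pump beta subunits (319), CG5290 and lncRNA:CR43174 (315), CG3961 and NijB (302), Hacd1 and Rh5 (300.1), lncRNA:CR44761 and Ppa (296), and CheB38c and CG9331 (274). Of these 20 peaks, 11 lay in gaps between divergent genes, 15 held GAGAGAG, and 16 bordered a gene with a promoter peak of its own. Over all 279 intergenic peaks, 99 lay in divergent gaps and 96 (34.4%) held GAGAGAG. Of the 262 with a bordering coding gene, 148 (56.5%) bordered one with a promoter peak. All 20 were among the best regions of both single lists, which the choice by pooled signal from the same alignments favours.

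The single lists ranked the intergenic peaks unevenly. Of the 279, 140 (50.2%) lay among the best regions of both lists, taking as many from each as the thresholded list holds, 64 (22.9%) among those of list A only, 53 (19.0%) among those of list B only, and 22 (7.89%) among neither. The share in both was 60.5% for promoter peaks (odds ratio 0.658, 0.509 to 0.850; adjusted p = 0.00254) and 57.9% for intronic peaks (0.732, 0.557 to 0.962; adjusted p = 0.0349, Fisher's exact test). Among peaks at or above the median signal, neither difference passed: 88.4% of intergenic, 89.5% of promoter and 91.5% of intronic peaks were in both. With the 279 divided by quartiles of signal, the count in both was 65 of 69 in the highest class and 50 of 70 in the next, then 24 of 70 and 1 of 70. The pooled signal comes from the same alignments as the single lists, whose best regions are also chosen by signal. This gradient therefore follows largely from that choice and is no separate measure of reproducibility. Counting candidates of any rank, 257 (92.1%) were found in both lists, 15 in list A only and 7 in list B only. Over those 257, the signal was 17.7 to 453 in list A (median 65.4) and 9.71 to 302 in list B (median 48.8). Spearman's rho across peaks was 0.43, a description of lists that share a control. It covers only peaks that passed on pooled alignments, so it does not measure how the full lists correlate.

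**Figure D2:**
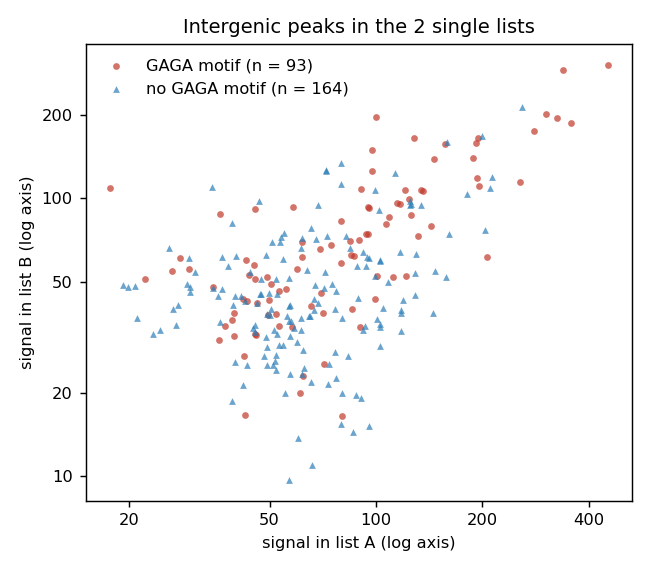
Signal in list A against signal in list B (both log axes) for the 257 intergenic peaks that are candidates in both, by presence of GAGAGAG within 100 bp of the summit. Most of the peaks high in both lists hold the motif, and peaks under a signal of 100 scatter widely.

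GAGAGAG, searched on both strands, lay within 100 bp of the summit in 96 of 279 intergenic peaks, 34.4% (95% interval 28.8 to 40.3%). In windows of the same length 1000 bp to the higher-coordinate side it lay in 10, 3.58% (odds ratio 11.8, 95% interval 5.71 to 24.2; exact McNemar test, two-sided, adjusted p = 8.49e-19). These flanks, used for every motif and for GC, were not screened for genes, start sites or other peaks, and some lie inside genes. Among intergenic candidates that did not pass the threshold, all with pooled signals of 73.2 or less, 3.79% held it. By Fisher's exact test the share was lower than at promoter summits, 44.3% (odds ratio 0.659, 0.504 to 0.861; adjusted p = 0.00334), and lower than at intronic summits, 46.5% (0.605, 0.456 to 0.803; adjusted p = 0.00106). With the best regions of list A or list B alone, the odds ratio against flanks was 19.2 or 20.4, and with list A that against promoter summits was 0.732 and did not pass (exact test, adjusted p = 0.0581). The difference from promoters did not pass among peaks at or above the median signal, of which 44.6% of intergenic and 53.9% of promoter peaks held the motif (exact test, adjusted p = 0.116). The nearest match had its midpoint a median of 19.0 bp from the summit (quartiles 5.00 and 35.2 bp). Runs of alternating GA or CT reached 11 bp or more in 41 of the 279 windows (14.7%) and 21 bp or more in 7.

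**Figure D3:**
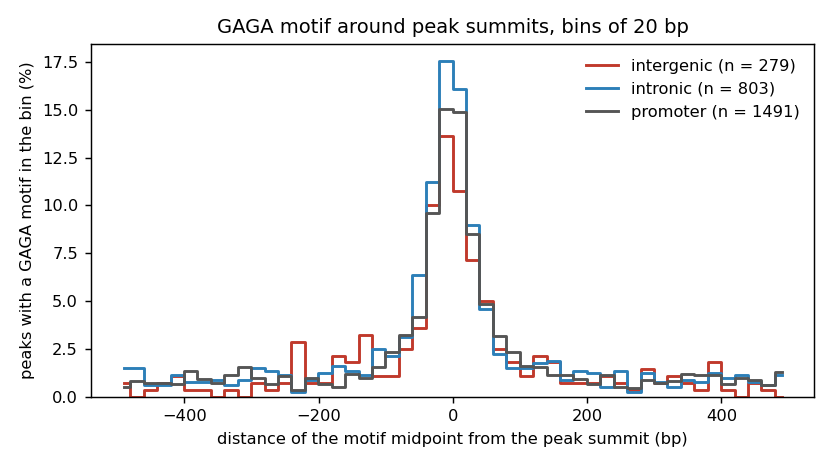
Share of peaks with a GAGAGAG midpoint in each 20 bp bin from 500 bp before to 500 bp after the summit, for intergenic, intronic and promoter peaks. The share is highest at the summit in each class, and intergenic peaks lie under the other classes in the 20 bp bin on each side of it.

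The motif is set beside other measures of the same peaks as a description, with no test. The 96 with GAGAGAG had a median signal of 121, against 95.6 in the 183 without it, and 64.6% against 42.6% were among the best regions of both lists. The motif was in 42 of 97 peaks up to 1000 bp from a start site (43.3%), 43 of 140 at 1000 to 5000 bp (30.7%) and 11 of 42 farther out (26.2%). Median signals in these bins were 121, 97.3 and 91.9. Between divergent genes 47 of 99 peaks held it (47.5%, 37.3 to 57.8%), in tandem gaps 41 of 138 (29.7%, 22.2 to 38.1%) and between convergent genes 8 of 42 (19.0%, 8.60 to 34.1%). GAGAGAG was thus most frequent in the nearest bin by distance, which the position rule cuts off at 500 bp, and in divergent gaps by orientation.

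The dl motif lay at 2 of the 279 summits (0.717%) and in 1 flank (0.358%), a difference that did not pass the exact McNemar test (adjusted p = 1.00, with a 95% interval of the odds ratio of 0.181 to 22.1). It lay at 1.21% of promoter summits, 2.37% of intronic summits and 1.32% of candidates that did not pass. Among the best intergenic regions of list A alone it lay at 2.39% of summits and 0.398% of flanks, and among those of list B at 0 and 1.40%, and neither difference passed (exact test, adjusted p = 0.225 each). The matched peaks, with signals of 82.0 beside CG5011 and 76.8 beside Tep4, a thioester protein gene of the immune response, were near the low end of the list. The dinucleotide repeat CACACAC lay at 57 intergenic summits (20.4%) and in 24 flanks (8.60%; odds ratio 2.74, 1.62 to 4.63; exact McNemar test, adjusted p = 5.05e-04). The homopolymer AAAAAAA lay at 35 (12.5%) and in 66 flanks (23.7%; odds ratio 0.466, 0.295 to 0.735; exact test, adjusted p = 0.00305). Base composition moved with these: median GC was 49.8% in the summit windows and 41.8% in the flanks, and its part in the motif differences was not tested. TGANTCA, the letters bound by AP-1, lay at 3 summits (1.08%) and in 13 flanks (4.66%; exact test, adjusted p = 0.0479), and 8 of 10 alternatives ended that call. GATAAG (22 summits and 24 flanks), CAGGTAG (4 and 4), CACGTG (5 and 6) and TATCGATA (0 and 3) did not pass. The dl motif and TATCGATA had 3 windows each that differed between summit and flank, so the smallest p that the exact test can give them is 0.25 before adjustment, and neither could pass.

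Sequence that meets the position rule came to 39.3 Mb in 6541 gaps, 14 of them at arm ends and the rest between genes. Intergenic peaks thus had a density of 7.10 per Mb (95% interval 6.29 to 7.98), and 221 gaps (3.38%) held at least 1. The total includes 2.58 Mb on Y, which had no intergenic candidate, and 1.47 Mb at arm ends, and both also count in the classes of gap size. Density was 13.1 per Mb between divergent genes (10.6 to 15.9), 6.82 in tandem gaps (5.73 to 8.06) and 4.17 between convergent genes (3.01 to 5.64). Gaps of up to 5 kb had 23.8 peaks per Mb (19.6 to 28.7), gaps of 5 to 20 kb 8.81 (7.29 to 10.5) and longer gaps 2.31 (1.71 to 3.05). Density was thus highest in divergent gaps by orientation and in the smallest gaps by size. The background share of intergenic candidates in the pooled list that passed the threshold was 4.63%, 279 of 6032. Against it, 6.45% passed between divergent genes, 4.51% in tandem gaps and 2.95% between convergent genes, and 7.93%, 4.06% and 2.86% in the 3 classes of gap size.

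**Figure D4:**
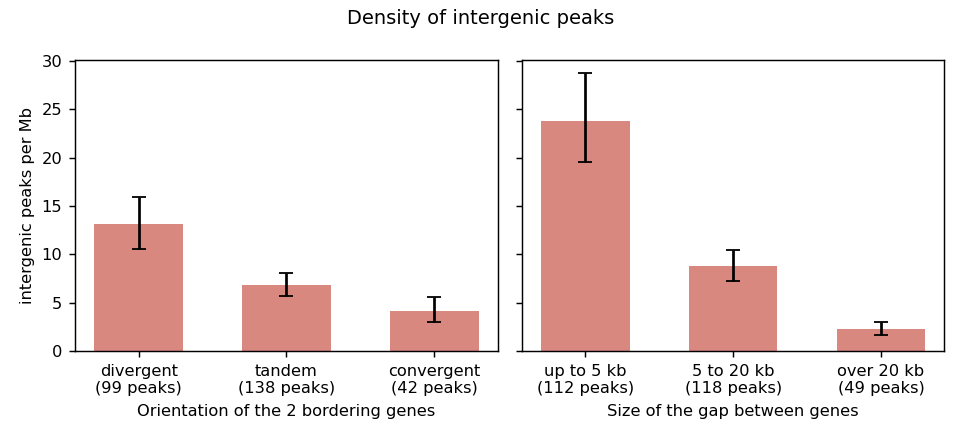
Intergenic peaks per Mb of sequence that meets the position rule, by orientation of the bordering genes and by size of the gap, with exact Poisson 95% intervals. Divergent gaps (13.1) lie above tandem (6.82) and convergent gaps (4.17), and gaps of up to 5 kb (23.8) above longer ones.

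By arm, 2L held 66 intergenic peaks (9.75 per Mb, 7.54 to 12.4), 3L 78 (8.55), 3R 60 (7.79), 2R 44 (5.87) and X 31 (5.77, 3.92 to 8.18). Chromosome 4 held none among 75 intergenic candidates, and Y had no intergenic candidate. The share of peaks with GAGAGAG was 17 of 31 on X (54.8%) and 15 of 66 on 2L (22.7%), where 20 of the peaks came from 3 gaps with 5 or more each.

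From the summit to the nearest start site the distance was 501 to 34788 bp with a median of 1408 bp (quartiles 833 and 3035), against a median of 3352 bp for intergenic candidates that did not pass. To the nearest start site of a coding gene the median was 1761 bp. The gap around a peak measured a median of 5886 bp (quartiles 2908 and 16057), against 11919 bp for candidates that did not pass. Both bordering genes were coding for 160 peaks (57.3%), 1 for 102 (36.6%) and none for 17 (6.09%), and the nearest start site belonged to a bordering gene for 265 of the 279. The largest gaps with a peak were NijA to CG43245 (75047 bp), lncRNA:CR44971 to ACXC (70634 bp, signal 225), Tollo to Best4 (56125 bp, 92.8), CG8204 to CG42524 (39862 bp, 2 peaks) and bab1 to bab2 (39339 bp, 87.0). The peak between bab1 and bab2, paralogous regulators of limb and abdominal pattern, held GAGAGAG and was among the best regions of both single lists. Just outside the limit of 500 bp lay peaks beside CG31145 (501 bp, signal 346), Jon65Aiii (508 bp, 144) and CG4374 (511 bp, 81.2), and just inside it peaks beside Prx6c (499 bp, 108), plum (497 bp, 82.0) and CycD (494 bp, 184).

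Intergenic peaks often lay beside genes that had a promoter peak as well. Of the 262 with at least 1 bordering coding gene, 148 (56.5%, 50.2 to 62.6%) bordered one with a promoter peak, against 1571 of 5158 candidates that did not pass (30.5%, 29.2 to 31.7%). The odds ratio of 2.96, between 2.31 and 3.81 at 95% confidence, passed Fisher's exact test (adjusted p = 2.26e-16). Those candidates had pooled signals of at most 73.2, under the lowest of the peaks, so the compared regions also differ in signal. With the best regions of list B alone the odds ratio was 1.78 (1.37 to 2.29), and it passed as well. The share was 68.1% against 31.1% for summits up to 1000 bp from a start site, and 53.9% against 29.5% at 1000 to 5000 bp. Farther out it was 37.5% (22.7 to 54.2%) against 31.5% (29.4 to 33.7%), and the intervals overlapped. Another peak of any class lay within 1000 bp of 96 intergenic peaks (34.4%), 409 promoter peaks (27.4%) and 285 intronic peaks (35.5%). No other peak lay within 20000 bp of 61 intergenic peaks (21.9%).

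Of the 221 gaps, 188 held 1 intergenic peak, 22 held 2, 7 held 3, and 1 each held 5, 6, 7 and 8. The gap with 8 lay between Hacd1, a dehydratase gene of very long chain fatty acid synthesis, and Rh5, a rhodopsin gene of photoreceptors, at chr2L:12002267-12008152. On the other side of Rh5, the gap to lncRNA:CR44588, at chr2L:12009833-12013527, held 5. Together these 13 summits spanned 9301 bp, and a 10 kb window there held 14 peaks of any class, the most of any such window on the arms. From low to high coordinate, the pooled signals beside Hacd1 were 300.1, 183, 94.6, 92.8, 138, 131, 116 and 270.4, and those beyond Rh5 164, 143, 199.6, 165 and 158. The highest 2 lay near the ends of the first gap, and the rest were between 92.8 and 199.6.

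None of the 13 held GAGAGAG and 3 held CACACAC, and their median GC of 52.7% was close to the 49.8% of all intergenic peaks. The single lists weighted them differently: 10 were among the best of list A, 9 among the best of list B and 6 among both. The first peak had 211 in list A and 109 in list B, and the last of the first gap 181 and 104. The peaks of 92.8 and 138 had no candidate in list A and 70.3 and 86.5 in list B, whereas the peak at chr2L:12011518 had 174 in list A and no candidate in list B. These gaps are described because they hold many peaks, so their share of candidates that passed, 8 of 11 and 5 of 5, is high by that choice.

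The gap COX7AL2 to CG31668, at chr2L:2197913-2203720, between a gene related to a cytochrome c oxidase subunit and an uncharacterised gene, held 7 peaks from 10 candidates. Their pooled signals were 196, 79.0, 479, 182, 134, 108 and 255, of which 1, the peak of 182, held GAGAGAG, and 5 were among the best of both lists. The peak of 479 had 259 in list A and 212 in list B and was the highest of the 7 in each. In the gap NijA to CG43245 on 3L, beside a ninjurin gene, 6 of 42 candidates passed, with signals of 74.4 to 231, and 4 of these held GAGAGAG. They lay 11976 to 34788 bp from the nearest start site. Over the 26 peaks of gaps with 5 or more, the median signal was 140.3 and 5 (19.2%) held GAGAGAG, against 99.8 and 91 (36.0%) over the other 253.

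**Figure D5:**
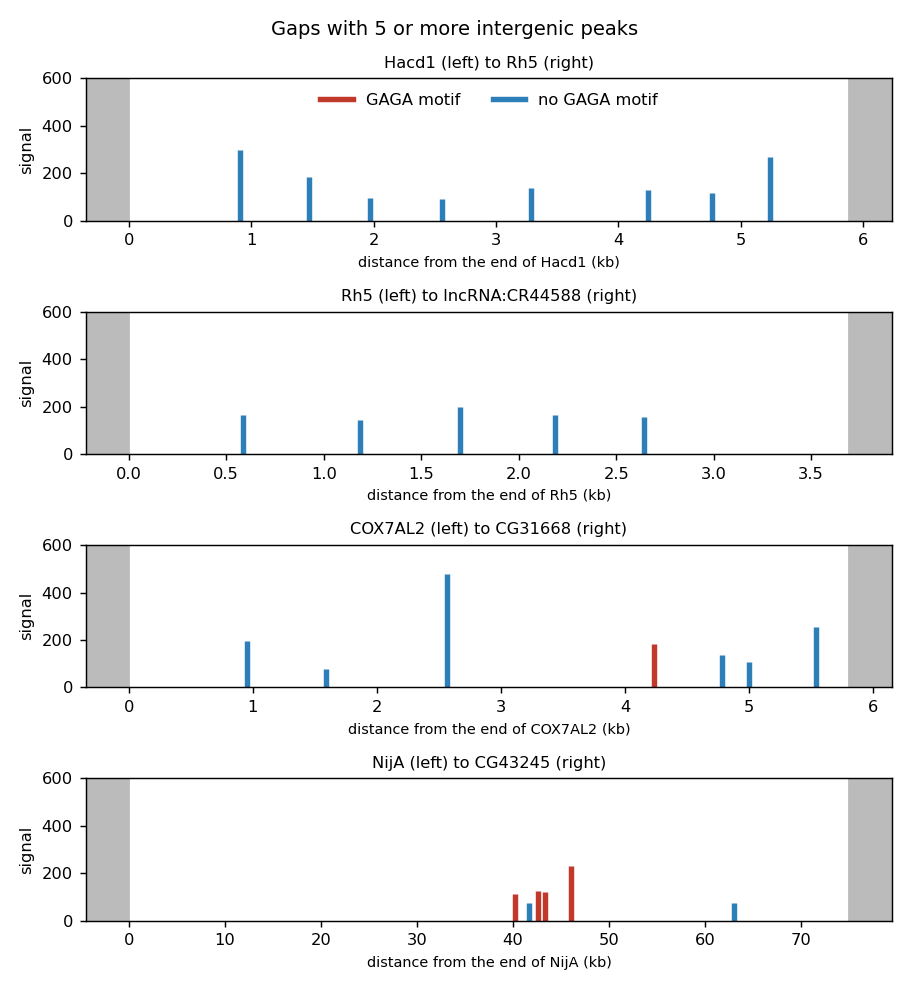
Summits of intergenic peaks in the gaps that hold 5 or more, by distance from the left edge of the gap (kb), with bar height as pooled signal and colour by presence of GAGAGAG; grey marks the bordering genes. The 13 peaks on both sides of Rh5 hold no GAGAGAG, whereas 4 of the 6 in the gap beside NijA do.

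The gaps with 3 peaks were CG18404 to lncRNA:CR46113 (3R), CG43774 to ed (2L), Eaf6 to Blimp-1 (3L), Su(z)2 to CG13323 (2R), lncRNA:CR44761 to Ppa (2R), lncRNA:CR45036 to lncRNA:CR42755 (3L) and lncRNA:acal to psq (2R). Between acal and psq, a BTB gene whose product binds GA repeats, all 3 peaks held GAGAGAG, with signals of 95.5 to 202. Beside ed, a cell adhesion gene, the 3 had 76.8 to 109 and none was among the best of both lists. The 3 between Eaf6 and Blimp-1, a repressor of the ecdysone response, had signals of 80.0, 83.2 and 90.9. They lay 8821, 912 and 18892 bp from Blimp-1. The start nearest to the peak of 90.9 was that of Eaf6, at 3791 bp.

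Of 7735 coding genes that border sequence meeting the rule, 324 had an intergenic peak in a bordering gap, a background of 4.19%. Neighbouring genes share gaps and thus peaks, and the gene lists were chosen with earlier results of these data known. Counts over gene lists are therefore given as descriptions. A gene is counted where it borders the gap, at any distance, and the start of another gene may lie nearer to the peak. The share also moved with the length of rule-meeting sequence beside the gene: 2.50% with up to 5 kb, 7.56% with 5 to 20 kb and 11.2% with more. Among homeobox and other patterning regulators the count was 24 of 80 (30.0%, 95% interval 20.3 to 41.3%). Their highest signals were in gaps bordered by chinmo (383), Dll (294), pdm2, a POU domain gene (216), croc, a forkhead gene (176), ems, a head gap gene (150.3) and lbe, a homeobox gene (149). Those of ems and lbe lay 24536 and 13569 bp from these genes, with starts of other genes at 2401 and 5595 bp. In those 3 classes of length, 1 of 15, 9 of 31 (29.0%) and 14 of 34 (41.2%) had a peak, so the share was above that of all coding genes in both classes of longer flank. None of the 12 Hox complex genes that border such sequence had an intergenic peak in a bordering gap, which allows a share of up to 26.5%. The count covers only gaps that a listed gene borders, not all sequence of the complexes. Peaks of 106 and 99.9 lay on 3R in the gaps lncRNA:bxd to lncRNA:CR44945 and Glut3 to lncRNA:CR45750, which no listed gene borders.

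Toll pathway genes counted 5 of 19 (26.3%, 9.15 to 51.2%), and they were ligand and receptor genes. By length of flank these were 1 of 12, 2 of 4 and 2 of 3, too few to set against the shares of all coding genes at the same length. The ligand gene spz3 had a peak of signal 126, the receptor genes 18w and Tollo had 116 and 94.9, Tl, the receptor upstream of dl, had 78.8, and Toll-7 had 74.7. Antimicrobial peptide and bomanin genes counted 0 of 21, which allows a share of up to 16.1%. Of these, 19 had up to 5 kb of such sequence beside them, where 2.50% of all coding genes had a peak. The list of dorsoventral target genes of the embryo, not limited to direct targets of Dorsal, counted 1 of 25, the EGF-like ligand gene vn (78.8). That peak lay 24105 bp from vn and 1732 bp from the nearest start, which is of another gene.

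Secreted signals and receptors counted 6 of 32 (18.8%), and 0 of 13, 3 of 10 and 3 of 9 by length of flank. They were the Hedgehog receptor gene ptc (187), the Wnt receptor gene fz (163), the Notch ligand gene Ser (81.4), hh (80.9), vn, by the same distant peak as above, and the JAK-STAT ligand gene upd2 (76.8). Ecdysone response genes counted 4 of 22 (18.2%), and 2 of 15, 1 of 5 and 1 of 2 by length of flank: the nuclear receptor gene Eip75B (93.4), Blimp-1, rn, a zinc finger gene (86.2), and ImpE2 (74.9). Salivary gland glue and its regulators counted 2 of 7, both regulators, CrebA (176) and fkh (87.2), and neuronal genes 1 of 15, the microtubule-associated futsch (228). The peaks of fkh and futsch lay 33745 and 9956 bp from these genes, with starts of other genes at 2414 and 6059 bp. The peak of 176 lay 2896 bp from CrebA, with the start of another gene at 1026 bp. A peak of 138 in the same gap lay 644 bp from CrebA. The ecdysone and dorsoventral lists had no signal above the arm median of 119, and the Toll list had 1, that of spz3.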

How the data were processed

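ChIP-seq region lists in dm6 were used: 2 lists of candidates called on single ChIP alignments (A and B, which no source used here links to replicate numbers), 1 called on the pooled alignments, and 1 thresholded by irreproducible discovery rate, per the deposited description files. For the aligner, the caller, their versions and the threshold, nothing is stated (not given in the sources used here). The deposited signal is the authors' enrichment of ChIP over control. The lowest signal in the thresholded list was 73.3, and the highest among intergenic candidates that did not pass was 73.2. Comparisons of intergenic peaks with such candidates therefore set higher against lower pooled signal. The −log10 of a q-value, also deposited by the authors, was not used to rank regions. No read counts were used, so depth is unknown and intervals cover counting of regions only. The dm3 lists were not used.

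Coordinates are 1-based. Genes came from Ensembl release 115 (BDGP 6.54) and sequence from the release 6 reference assembly. Classes were compared by Fisher's exact test with Woolf intervals, adjusted over 7 tests, and motif windows with flanks by the exact McNemar test, adjusted over 9 motifs (Benjamini-Hochberg, threshold 0.05, all two-sided). Shares have Clopper-Pearson and densities exact Poisson 95% intervals. Regions, not larvae, are the units, and neighbouring regions are not independent, so p-values describe these lists. Motif and distance code was tested on simulated sequence, where all 200 planted motifs were found. NumPy 2.4.6, SciPy 1.17.1, pandas 2.3.3 and matplotlib 3.10.9 were used.

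The genes named border the 20 peaks of highest signal, gaps with 3 or more peaks and the 5 largest gaps, lie nearest to the 3 peaks on each side of the 500 bp limit, or are the up to 6 members of highest signal in each of 9 gene lists. Genes beside the peaks with a dl motif, and those of the 3R gaps given beside the Hox count, were named after their values were seen. Members, lists and motifs were chosen with earlier results of these data known.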

Additional observations from a re-analysis of the deposited data

How the results depend on the processing

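Of 72 alternatives over the 9 results with a test, 56 did not turn the odds ratio past 1 or change the call. The GAGAGAG excess over flanks, its deficit against intronic peaks and the bordering promoter peaks passed under every alternative run, with odds ratios of 8.09 to 48.0, 0.506 to 0.681 and 1.78 to 4.27. The dl motif had too few matches to pass as reported, and its odds ratio ran between 0.111 (list B) and 6.0 (list A), with 0.333 among peaks at or above the median signal and 0.400 with flanks on the lower-coordinate side. Excluding start sites within 1000 bp left 182 peaks, a median distance of 2416 bp and a median gap of 10602 bp, and the signal odds ratio against intronic peaks was 0.697 (exact test, adjusted p = 0.0465). Peaks at or above the median signal numbered 112, at a median of 1134 bp, and their odds ratios were 0.894 against promoter and 0.708 against intronic peaks for presence in both lists, and 0.690 against promoter peaks for GAGAGAG. With the peak of highest signal in each gap or gene the median distance was 1271 bp, and the signal odds ratio against intronic peaks, 0.542, follows a choice made on signal. Without the gaps of 5 or more peaks, chosen after seeing the data and dropped among intergenic peaks alone, these were 1317 bp and 0.671, and the median gap 7167 bp. Counting candidates of any rank in both lists gave 0.949 against promoter peaks and the opposite direction, 1.15, against intronic peaks (exact test, adjusted p = 0.728). Motif windows of 250 bp each side gave 0.765 against promoter peaks (exact test, adjusted p = 0.0504). The best regions of single lists A or B alone gave 251 to 285 peaks, median distances of 1389 to 1504 bp, gaps of 5886 to 7167 bp, signal odds ratios of 0.524 to 0.784 against promoter and 0.657 to 1.04 against intronic peaks, and GAGAGAG odds ratios of 0.672 to 0.732. The cause of these shifts was not tested. The excess of CACACAC and the deficit of AAAAAAA at summits kept their call under 8 of 10 alternatives each, and that of TGANTCA under 2 of 10, all chosen after seeing the data. Samples could not be paired between groups because there is only 1 group, and pairing was used only for motif windows, each summit with its own flank.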
